A study of Mus musculus with 6 samples.

Results

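At 5483 places in the mouse genome, DNA that carried 5-methylcytosine (5mC) in fibroblasts gave a 5-hydroxymethylcytosine (5hmC) peak after 3 days of reprogramming and had no 5hmC peak in fibroblasts or in induced pluripotent stem (iPS) cells. These transient peaks were chosen from the day-3 5hmC list by 3 conditions: an overlap of 1 bp or more with a fibroblast 5mC peak, no overlap with a fibroblast 5hmC peak, and no overlap with an iPS 5hmC peak. They made up 4.72% of the 116087 day-3 5hmC peaks (95% Wilson interval 4.60 to 4.85). Of the day-3 5hmC peaks, 31901 lay on fibroblast 5mC, 25216 of these had no fibroblast 5hmC peak, and 21.7% of the 25216 (21.2 to 22.3) had no iPS 5hmC peak. The remaining 19733 of the 25216 peaks had an iPS 5hmC peak and are called kept peaks here, as the class that differs from the transient peaks in this condition alone. The presence or absence of fibroblast 5hmC, fibroblast 5mC, day-3 5hmC and iPS 5hmC at the transient peaks is fixed by this choice and is a description, and transient refers to peak calls in these lists. The 5mC lists of day 3 and of iPS cells were not used in it.

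5hmC is formed when an enzyme of the Tet family oxidises 5mC, and Tet enzymes can oxidise it further to bases that DNA repair replaces with unmodified cytosine. 5hmC can also be lost without further oxidation, because the maintenance methyltransferase copies 5mC to new DNA strands far better than it copies 5hmC. In a cell population, 5hmC at a place that was methylated before can therefore precede a loss of methylation, or it can coexist with 5mC. Embryonic stem cells and iPS cells are known for much 5hmC and for high Tet1.

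The cells came from mice made from iPS cells that carried doxycycline-inducible Tet1, Sox2, Klf4 and c-Myc, and the strain of each library was OG2-GFP/Rosa26-M2rtTA. The stages were the mouse-derived fibroblasts at passage 4, such fibroblasts at passage 4 with doxycycline for 3 days (day 3), and an iPS line obtained by induction of the same 4 factors in this system, at passage 10 to 15. The doxycycline was given together with a change to embryonic stem cell medium, and feeder cells under the iPS cells were reduced before harvest by letting them attach to a dish. The iPS cells were 1 line. DNA was precipitated with an antibody against 5hmC or 5mC, with 1 library per stage and mark, 6 in all. The read depth is unknown and there are no replicates, so no difference below has a test, and each interval covers counting error only. A longer peak list gives more overlaps. In the order of the stages, the 5mC lists held 104011, 165869 and 61171 peaks and the 5hmC lists held 42301, 116087 and 174079. A place without a peak is one where the authors' peak caller found none, which is not the same as an absent mark.

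Most transient peaks still had a 5mC peak at day 3, and few had one in iPS cells. At day 3, 4640 of the 5483 transient peaks overlapped a 5mC peak, or 84.6% (83.6 to 85.6). The same share was 40.4% over all day-3 5hmC peaks and 91.9% over all day-3 5hmC peaks on fibroblast 5mC, so the high share is largely that of the 5mC condition in the rule. In iPS cells 1017 transient peaks overlapped a 5mC peak, or 18.5% (17.5 to 19.6). This level depends on how peaks are counted: it was 10.6% of 2398 transient peaks when scores of 100 or more were required throughout, and 27.5% when a 5mC peak within 1000 bp counted as present. Over all day-3 5hmC peaks this share was 13.6%, and over those on fibroblast 5mC it was 38.5%. Because the transient peaks have no iPS 5hmC by the rule, 4466 of them, or 81.5%, had a peak of neither mark in iPS cells.

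Both later 5mC lists together divided the transient peaks into 4 states. The largest state, with 3702 peaks or 67.5% (66.3 to 68.7), had 5mC at day 3 and none in iPS cells. A 5mC peak at both later stages was found at 938 transient peaks, or 17.1% (16.1 to 18.1). A 5mC peak at neither later stage was found at 764, or 13.9% (13.0 to 14.9). The smallest state, with 79 peaks or 1.44% (1.16 to 1.79), had no 5mC peak at day 3 and had one in iPS cells. The shares of these states over all gained day-3 5hmC peaks on fibroblast 5mC were 58.3%, 33%, 7.65% and 1.04%, in the same order.

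**Figure D1:**
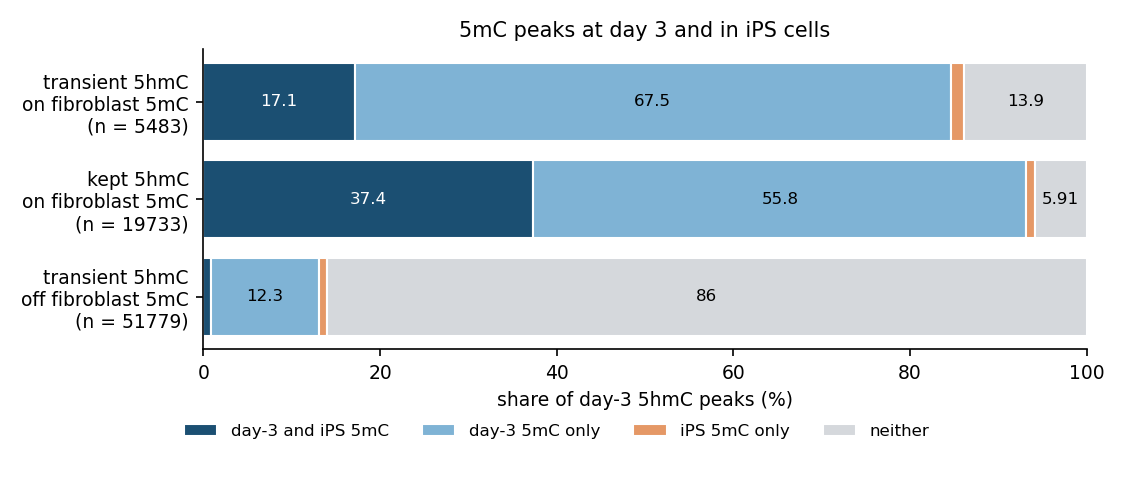
Shares of day-3 5hmC peaks in each 5mC state, in percent of the peaks of a class, for the transient peaks on fibroblast 5mC, the kept peaks on fibroblast 5mC and the transient peaks off fibroblast 5mC. The state with 5mC at day 3 and none in iPS cells is the largest in the first class at 67.5%, and 5mC at both stages takes 17.1% there against 37.4% of the kept peaks.

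The kept peaks retained 5mC more often at both later stages. At day 3 a 5mC peak was present at 84.6% of the transient peaks and at 93.2% of the kept peaks (92.8 to 93.5), a difference of -8.53 percentage points (-9.57 to -7.54). In iPS cells the shares were 18.5% of the transient peaks and 38.3% of the kept peaks (37.6 to 39.0), a difference of -19.8 points (-21.0 to -18.5). The iPS share of the transient peaks was 0.484 times that of the kept peaks. Restricted to peaks with 5mC at day 3, an iPS 5mC peak was present at 20.2% of the transient peaks (19.1 to 21.4) and at 40.1% of the kept peaks (39.4 to 40.8). That is a difference of -19.9 points (-21.2 to -18.5). The day-3 5mC scores of these peaks still differed, with medians of 162.05 and 242.73. What part day-3 5mC has in the difference in iPS cells was not tested. The 51779 transient peaks off fibroblast 5mC, which share the loss of 5hmC but not the earlier 5mC, had a 5mC peak at day 3 in 13.1% of cases (12.8 to 13.4) and in iPS cells in 1.70% (1.59 to 1.82).

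In covered length the picture was the same. The transient peaks spanned 6262 kb in all, of which fibroblast 5mC peaks covered 3808 kb or 60.8%, day-3 5mC peaks 3645 kb or 58.2%, and iPS 5mC peaks 623 kb or 9.95%. That is a mean of 694 bp, 665 bp and 114 bp per transient peak. In the kept peaks the covered shares were 64.8%, 66.5% and 21.6%. Where an iPS 5mC peak was present, it covered a median of 67.4% of a transient peak and 67.6% of a kept peak. The classes thus differed in how often iPS 5mC was called and little in how much of a peak it covered once called.

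Single loci show the 4 states. They are the best-scoring transient peaks of each state, where the score is the value that the authors' peak caller gave to a peak and serves here for ranking within a list. Coordinates are on mm9, counted from 1, and a distance runs from the last base of one peak to the first base of the next. Among the peaks with 5mC at both later stages, the highest score belonged to a peak of 1653 bp on chromosome 7 from 142207642 to 142209294. Fibroblast 5mC covered 717 bp of it, day-3 5mC 937 bp and iPS 5mC 812 bp, so the 5mC peak lay at nearly the same place at each stage while the 5hmC peak was listed at day 3 alone. The nearest iPS 5hmC peak was 6573 bp away. The next in this state were on chromosome 10 from 79517721 to 79521673, with 1735 bp, 2256 bp and 712 bp of 5mC at the 3 stages, and on chromosome 2 from 44914144 to 44917650, with 1012 bp, 923 bp and 824 bp.

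In the state with 5mC at day 3 alone, 10 transient peaks tied at the highest score of any transient peak, 3100. This value recurs in each of the 6 lists, at 258 peaks of the day-3 5hmC list and at 33 to 192 peaks of the others, and what it stands for is unknown, so it does not order the peaks that share it. Each of the 10 had a 5mC peak at day 3 and none in iPS cells. Of the 870 transient peaks with day-3 5hmC scores of 428.23 or more, 86.2% had 5mC at day 3 and 11.7% had it in iPS cells. The 3 described here were taken from the tie by the alphabetical order of chromosome names. One of them, on chromosome 11 from 63708994 to 63713779, was 4786 bp wide. Fibroblast 5mC covered 974 bp of it and day-3 5mC 877 bp, and the nearest iPS 5mC peak was 22980 bp away. An iPS 5hmC peak lay 156 bp from its edge, so 5hmC was listed in iPS cells close to this peak but not on it. Another, on chromosome 11 from 97636042 to 97640126, had 1176 bp of fibroblast 5mC and 1085 bp of day-3 5mC. The last, on chromosome 14 from 62301691 to 62305611, had 2911 bp and 2447 bp, and its nearest iPS 5mC peak was 55985 bp away.

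The state with neither later 5mC peak had a median day-3 5hmC score of 132.8, close to the 133.5 of all transient peaks. In this state the best scores were on chromosome 17 from 88000574 to 88003413, on chromosome 10 from 110679242 to 110682623 and on chromosome 12 from 83633674 to 83635217. Fibroblast 5mC covered 868 bp, 1196 bp and 833 bp of them, with scores of 88.46, 62.43 and 74.66. The median fibroblast 5mC score was 62.33 in this state, 81.4 at all transient peaks and 119.8 at the kept peaks. The 3 best of the 79 peaks with 5mC in iPS cells and none at day 3 were on chromosome 15 from 58998958 to 59001722, on chromosome 12 from 77039336 to 77041843 and on chromosome 3 from 64913698 to 64915392. iPS 5mC covered 866 bp, 755 bp and 1015 bp of these. At the first of them a day-3 5mC peak lay 219 bp outside, so its absence at day 3 depends on where the peaks ended.

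**Figure D2:**
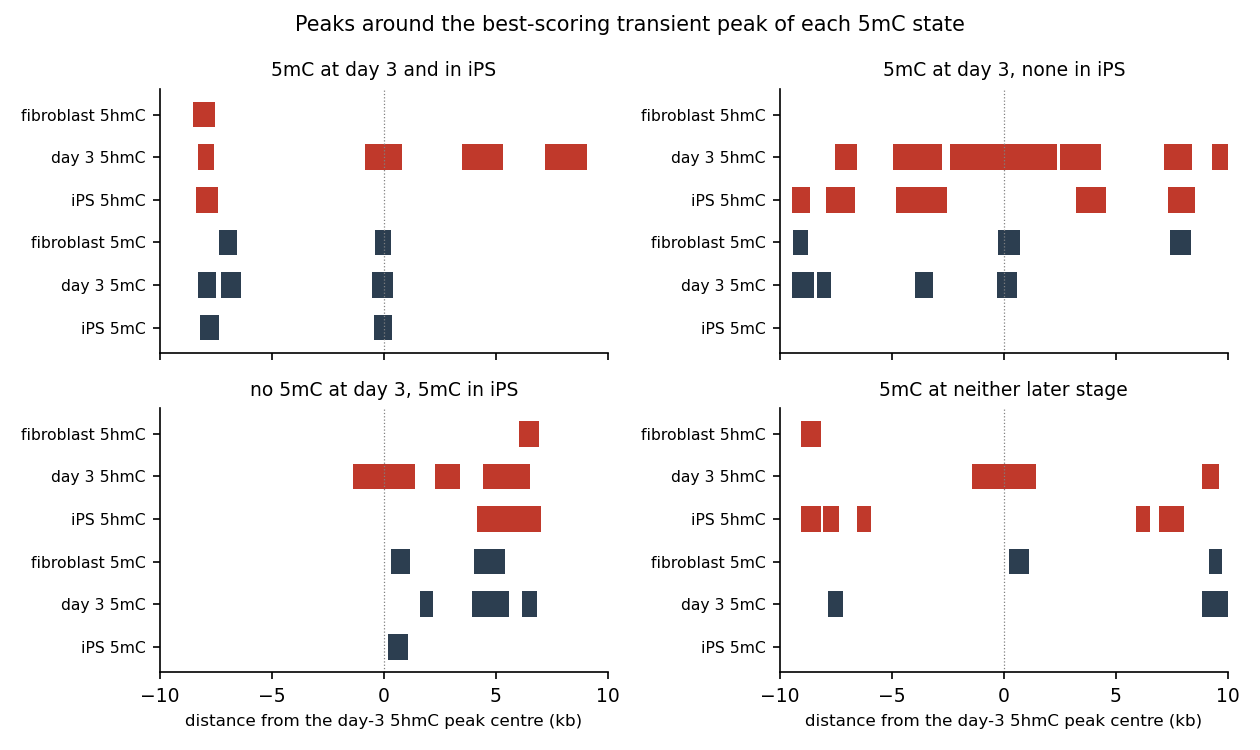
Peaks of the 6 lists within 10 kb of the best-scoring transient peak of each 5mC state, as bars against the distance from its centre in kb, with 5hmC lists in red and 5mC lists in dark blue. In each panel the central day-3 5hmC bar lies over a fibroblast 5mC bar and over no fibroblast or iPS 5hmC bar, and an iPS 5mC bar overlaps the central peak in the panels on the left and in none on the right.

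The widest transient peaks were all on chromosome 2, from 32017385 to 32023169 (5785 bp), from 30981736 to 30987290 (5555 bp) and from 170017405 to 170022415 (5011 bp). Each had 5mC at day 3, with 1778 bp, 3584 bp and 1913 bp covered, and none in iPS cells. The transient peaks had a median width of 973 bp (quartiles 807 and 1305), against 1049 bp for the kept peaks (845 and 1489) and 865 bp for the transient peaks off fibroblast 5mC (730 and 1055). A width of 3 kb or more was reached by 1.51% of the transient peaks and 4.02% of the kept peaks. The median day-3 5hmC score was 133.5 for the transient peaks, 153.2 for the kept peaks and 99.0 for the transient peaks off fibroblast 5mC. Single transient peaks ranged over the whole list, from its lowest score of 50.01 upward. Within its first 1000 ranks were 55 of them, close to their share of 4.72% of all day-3 5hmC peaks.

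The overlap with fibroblast 5mC was usually broad. Fibroblast 5mC covered a median of 721 bp (quartiles 561 and 858) or 71.8% of a transient peak, and it held the centre of 75.3% of the transient peaks (74.1 to 76.4) and of 79.2% of the kept peaks (78.6 to 79.7). An overlap of at most 100 bp occurred at 334 transient peaks, or 6.09% (5.49 to 6.76). At the edge of the rule, the transient peaks on chromosome 17 from 49678755 to 49680127 and on chromosome 2 from 92778913 to 92779582 overlapped fibroblast 5mC by 1 bp each. The nearest peaks outside the rule, on chromosome 19 from 46146600 to 46150033 and on chromosome 4 from 59920105 to 59920960, directly adjoined a fibroblast 5mC peak. The pair inside the rule had no 5mC peak at day 3, and the pair outside had 2158 bp and 642 bp of day-3 5mC. The 5483 transient peaks lay on 5504 fibroblast 5mC peaks. Of these 5mC peaks, 98 carried more than 1 transient peak, with 3 as the highest number, and 9.65% (8.90 to 10.5) had an iPS 5hmC peak elsewhere along their length.

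At day 3 and in iPS cells 5mC was more frequent at the centre of the transient peaks than around it. The fibroblast 5mC value at the centre is raised by the rule, which requires a fibroblast 5mC overlap. The centre of a transient peak lay under fibroblast 5mC in 75.3% of cases, under day-3 5mC in 67.8% and under iPS 5mC in 12.8%. At 5 kb to either side the fibroblast values were 12.9% and 12.1%, the day-3 values 18.7% and 18.3%, and the iPS values 5.51% and 5.58%. In iPS cells the centre thus remained above its own surroundings, but by far less than at day 3. At the kept peaks the centre values were 79.2%, 77.3% and 26.3%, and the values 5 kb before the centre were 17.4%, 24.7% and 9.43%. The surroundings of the transient peaks therefore held less 5mC than those of the kept peaks in each of the 3 lists. At the transient peaks off fibroblast 5mC no such rise at the centre was seen. There the centre values were 9.51% for day-3 5mC and 1.07% for iPS 5mC, against 11.2% and 3.15% at 5 kb before it. What part the fibroblast 5mC condition of the rule has in the centre values of the later lists was not tested.

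**Figure D3:**
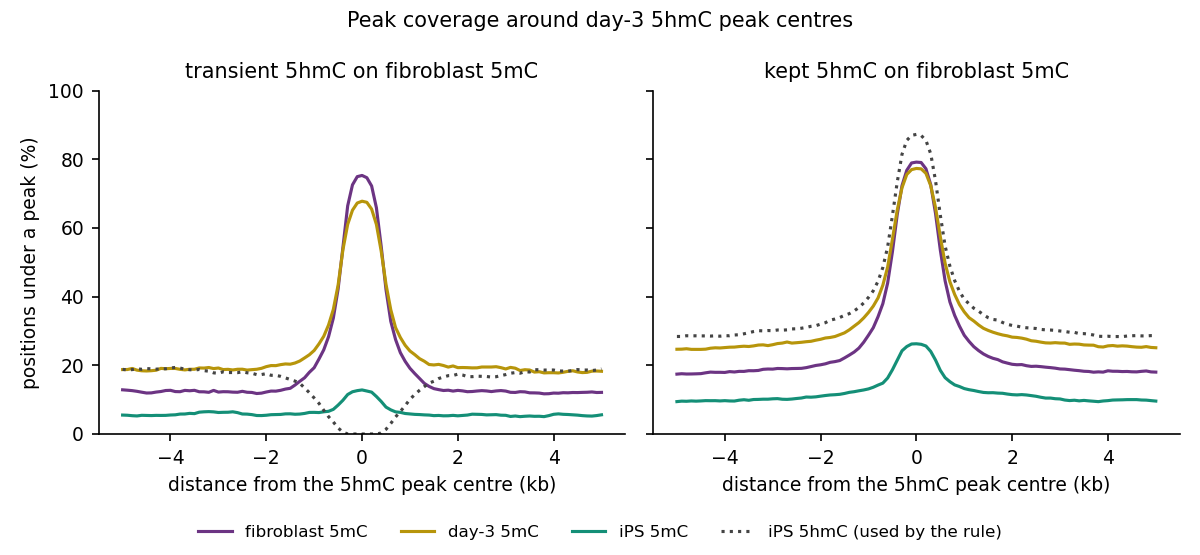
Share of positions under a peak, in percent, against the distance from the centre of the day-3 5hmC peak in kb, for the transient peaks on the left and the kept peaks on the right. The iPS 5mC line reaches 12.8% at the centre of the transient peaks and 26.3% at the centre of the kept peaks. At the centre, the dotted iPS 5hmC line is set by the choice of each class. The fibroblast 5mC line is raised there in both panels, because each peak had to overlap a fibroblast 5mC peak.

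iPS 5hmC was often close by. The nearest iPS 5hmC peak was at a median distance of 1927 bp from a transient peak (quartiles 631 and 5066), and of 3569 bp from a transient peak off fibroblast 5mC. An iPS 5hmC peak lay within 1000 bp of 1862 transient peaks, or 34.0% (32.7 to 35.2), and within 10 kb of 86.6% (85.6 to 87.4). For the transient peaks off fibroblast 5mC these shares were 21.7% (21.3 to 22.0) and 73.4% (73.1 to 73.8). The share of transient peaks with iPS 5mC varied little with the distance to the nearest iPS 5hmC peak. An iPS 5mC peak was present at 19.4% (17.2 to 21.8) of the 1145 transient peaks with iPS 5hmC within 500 bp and at 19.4% (16.7 to 22.4) of the 737 with none within 10 kb. In the classes between, the shares lay from 17.2% to 19.1%. At day 3 the share with 5mC was 84.9% (82.7 to 86.8) in the nearest class and 77.6% (74.5 to 80.5) in the farthest. Between them it ran from 82.5% to 88.1%, and was highest at 1001 to 2000 bp. Fibroblast 5hmC, a list of 42301 peaks against 174079, was farther off, at a median of 13198 bp, and within 1000 bp of 6.29% (5.68 to 6.97). That median was 10993 bp for the kept peaks and 18221 bp for the transient peaks off fibroblast 5mC. Where a transient peak had no iPS 5mC peak, the nearest one lay at a median of 8051 bp, against 4510 bp for the kept peaks without one.

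The strength of the earlier peaks was related to iPS 5mC in different ways. The transient and kept peaks together were ranked by their day-3 5hmC score and divided into 5 equal groups. From the lowest to the highest group, the share of transient peaks with iPS 5mC was 21.4%, 20.6%, 19.6%, 17.4% and 11.7%. In the kept peaks it was 39.5%, 39.3%, 38.3%, 37.3% and 37.1%. In the highest group the interval was 9.75 to 14.0 for the transient and 35.7 to 38.6 for the kept peaks. The strongest day-3 5hmC peaks among the transient ones thus had iPS 5mC least often. At day 3 no such order was seen, with 83.9% to 86.2% of the transient peaks of each group on 5mC.

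Ranked by the score of their fibroblast 5mC peak instead, the share of transient peaks with iPS 5mC was 13.0%, 16.2%, 24.6%, 26.1% and 20.5% from the lowest to the highest group. In the kept peaks it was 18.7%, 23.7%, 32.9%, 44.9% and 62.1%. On strong fibroblast 5mC peaks the classes were therefore farthest apart, with 20.5% (16.9 to 24.6) of 420 transient peaks and 62.1% (60.7 to 63.5) of 4623 kept peaks. Transient peaks were also rarer there. They made up 34.7% of the gained peaks in the lowest group and 8.33% in the highest, and their median fibroblast 5mC score was 81.4 against 119.8 for the kept peaks. Weighting the kept peaks to the transient peaks' distribution over these 5 groups gave an iPS 5mC share of 29.9% for the kept peaks, still above the 18.5% of the transient peaks, and weighting over 25 groups of both scores gave 30.0%. For day-3 5mC the weighted share of the kept peaks was 89.3%, against 84.6% of the transient peaks. Weighting by the length of the overlap with fibroblast 5mC gave 35.9% in iPS cells and 91.8% at day 3 for the kept peaks. What part fibroblast 5mC strength has in the difference between the classes was not tested.

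**Figure D4:**
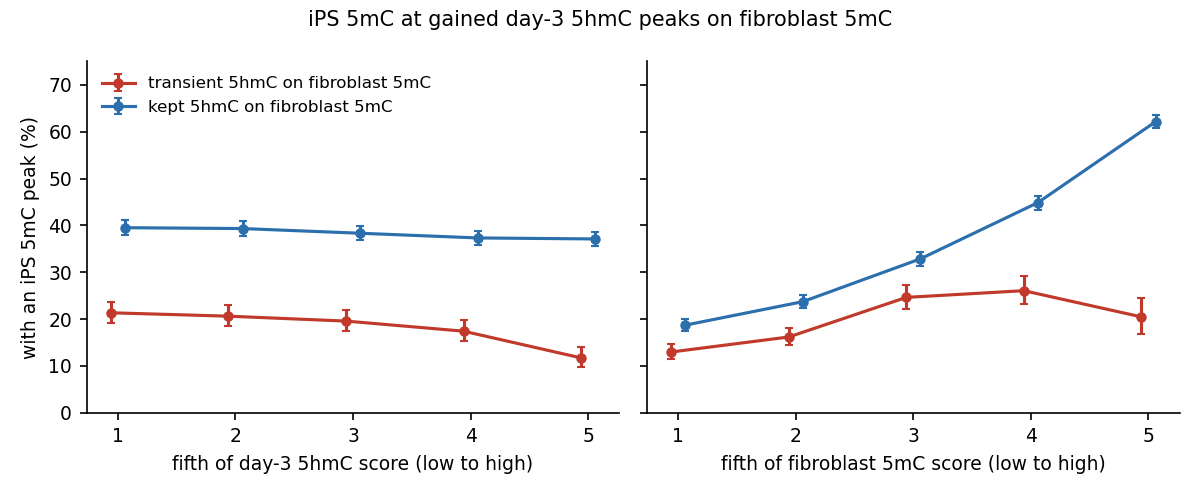
Share of day-3 5hmC peaks with an iPS 5mC peak, in percent with 95% Wilson intervals, in 5 equal groups by day-3 5hmC score on the left and by fibroblast 5mC score on the right, for transient and kept peaks on fibroblast 5mC. The transient peaks lie below the kept peaks in each group, and in the highest group by fibroblast 5mC score they stand at 20.5% against 62.1%.

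Within the transient peaks that had 5mC at day 3, a higher score of the day-3 5mC peak did not go steadily with iPS 5mC. The shares in 5 equal groups of 928 peaks were 14.3%, 18.5%, 23.8%, 23.8% and 20.6%. The median day-3 5mC score was 162.1 at the transient peaks and 242.7 at the kept peaks, and the median iPS 5mC score was 75.8 and 92.3 where such a peak was present. The 764 transient peaks without later 5mC had a median fibroblast 5mC score of 62.3, and those with 5mC at both later stages had 98.0.

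Counting from the fibroblast 5mC peaks allows a comparison with methylated places that never had a 5hmC peak. Of the 92420 fibroblast 5mC peaks without fibroblast 5hmC, 89.5% had a 5mC peak at day 3 and 37.2% had one in iPS cells. The 5630 of them with 5hmC at day 3 alone had iPS 5mC in 18.9% of cases (17.9 to 19.9). The share was 39.2% (38.5 to 39.8) of the 20005 with 5hmC at day 3 and in iPS cells, 44.0% (43.5 to 44.5) of the 40083 with 5hmC in iPS cells alone, and 29.4% (28.9 to 30.0) of the 26702 with no 5hmC peak at any stage. The 5mC peaks with transient 5hmC therefore had the lowest iPS 5mC share of the 4 classes. The classes also differed in fibroblast 5mC score, with medians of 77.4, 113.6, 100.85 and 71.3 in the order given above. What part 5hmC has in these differences was not tested. These classes are set over the whole 5mC peak. The 5630 are therefore not the same set as the 5504 fibroblast 5mC peaks under the transient peaks, of which 21.1% (20.1 to 22.2) had iPS 5mC. At day 3 the order of the 4 classes was different. A 5mC peak was still present at 85.6% (84.6 to 86.5) of those with transient 5hmC and at 81.7% (81.2 to 82.2) of those without any, and at 93.5% and 93.3% of the classes with iPS 5hmC.

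The class with transient 5hmC was also the lowest in iPS cells in each of 5 equal groups of these fibroblast 5mC peaks by score. With transient 5hmC, the iPS 5mC shares from the lowest to the highest group were 12.9%, 15.3%, 19.95%, 28.5% and 24.2%. With no 5hmC at any stage they were 18.1%, 24.4%, 33.2%, 46.1% and 61.5%. With 5hmC at day 3 and in iPS cells they were 16.8%, 20.7%, 28.7%, 38.6% and 62.0%. This class thus also lay below the one without any 5hmC in each group but the highest. With 5hmC in iPS cells alone the shares ran from 22.4% to 69.4%, above those without any 5hmC in each group. In the highest group each of the 600 peaks with transient 5hmC had 5mC at day 3, and 145 had it in iPS cells. Of the 1470 without any 5hmC in that group, 99.7% had 5mC at day 3 and 904 had it in iPS cells. The median fibroblast 5mC score in this group was 214.1 with transient 5hmC and 198.1 without 5hmC.

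**Figure D5:**
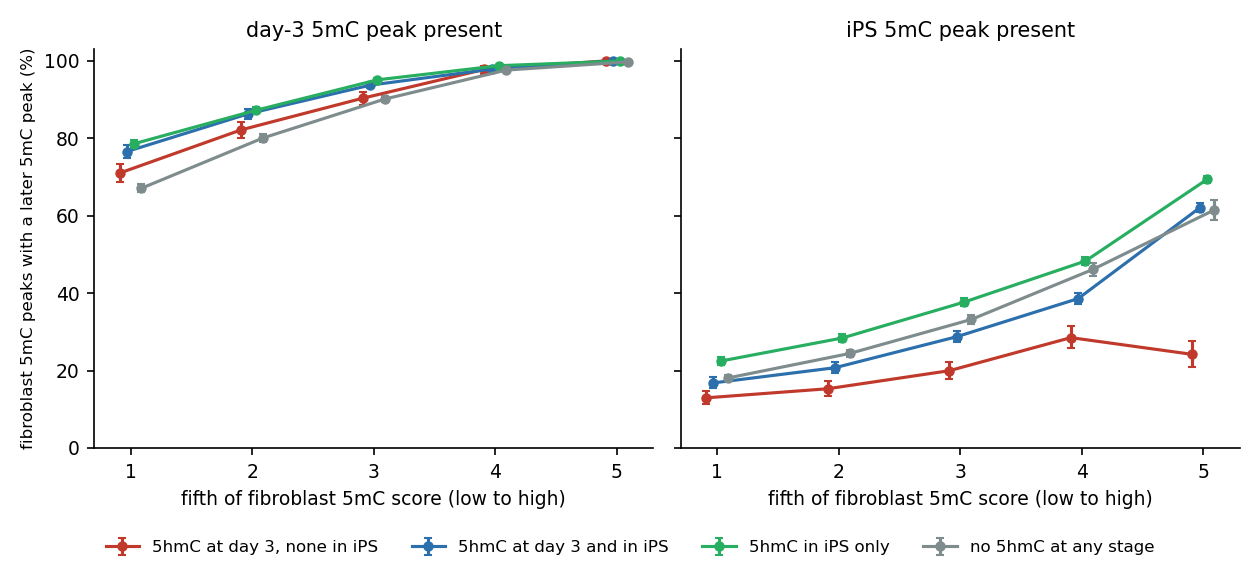
Share of fibroblast 5mC peaks without fibroblast 5hmC that had a 5mC peak at day 3 (left) and in iPS cells (right), in percent with 95% Wilson intervals, in 5 equal groups by fibroblast 5mC score and by the stages that had 5hmC. The peaks with 5hmC at day 3 alone are the lowest of the 4 classes in each group on the right, at 24.2% in the highest group, whereas on the left the classes come together at the highest scores.

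The transient peaks were spread over all autosomes. They made up from 18.4% of the gained peaks on fibroblast 5mC on chromosome 19 (16.1 to 21.0) to 25.8% on chromosome 3 (23.4 to 28.3). Their density ran from 1.75 per Mb on chromosome 14 to 3.19 per Mb on chromosome 17. On each of the 19 autosomes the share with iPS 5mC was lower in the transient than in the kept peaks. The gap was narrowest on chromosome 13, with 24.6% of transient and 32.4% of kept peaks, and chromosome 5 had the lowest share of transient peaks, with 12.3% and 35.8%. Chromosome X held 13 transient peaks, or 46.4% (29.5 to 64.2) of its 28 gained peaks on fibroblast 5mC. All 13 had 5mC at day 3 and 2 had it in iPS cells, against 84.6% and 18.5% of all transient peaks. Chromosome Y held no transient peak.

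Of the 4110 windows of 100 kb that held any transient peak, 3071 held 1, and these single peaks were 56.0% of the total. Whether transient peaks lie closer together or farther apart than randomly placed peaks was not tested. The median distance to the nearest other transient peak was 60938 bp, to the nearest kept peak 17089 bp, and to the nearest other day-3 5hmC peak of any kind 1916 bp. These sets differ in size, at 5483, 19733 and 116087 peaks, and a larger set gives shorter distances. For the kept peaks the distance to the nearest other day-3 5hmC peak was 1505 bp. No window held more than 6, and 6 windows held that number. The one with the most transient base pairs was on chromosome 17 from 34000001 to 34100000, where each of the 6 had 5mC at day 3 and 1 had it in iPS cells. On chromosome 12 from 113900001 to 114000000 all 6 had 5mC at day 3 and 4 had it in iPS cells. On chromosome 19 from 4000001 to 4100000, 5 of 6 had 5mC at day 3 and none had it in iPS cells, while 15 iPS 5hmC peaks and 5 iPS 5mC peaks lay elsewhere in that window.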

How the data were processed

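Per the submitters' processing notes, the authors used CASAVA 1.8, Bowtie 0.12.7, MACS 1.4.1 and mm9. Per the labels' protocols, 500 ng of adapter-ligated DNA entered each precipitation, with 14 to 16 cycles of amplification and fragments of 300 to 500 bp. Each deposited file is a peak list of 1 library with a score per peak, read here as the peak caller's significance value, which the files do not state. No source used here gives the control library, the settings or the depth. Overlaps were counted from 1 bp with Python 3.11.15, numpy 2.4.6 and pandas 2.3.3, figures were drawn with matplotlib 3.10.9, and the counting was tested on simulated data. Shares have 95% Wilson intervals, and differences have Newcombe intervals built from them. Neighbouring peaks are not independent, so these intervals are too narrow.

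Named loci are the 3 best-scoring transient peaks of each 5mC state, the 3 widest, the 3 windows of 100 kb with the most, and the pairs at the edge of the rule. The tie of 10 peaks at the highest score was described after their values were seen. The transient peaks, the classes and the comparisons were chosen with earlier results of these data known. No mm9 annotation or sequence was used here, so loci are given without genes or letters. The alternatives were a score of at least 100, the 42301 best-scoring peaks of each list, an overlap of at least 50%, the centre inside the other peak, no 5hmC within 1000 bp, peaks within 1000 bp joined, and autosomes only.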

Additional observations from a re-analysis of the deposited data

How the results depend on the processing

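No paired analysis was possible because each stage and mark had 1 library. Under each of 9 alternatives, 2 of them added after seeing the data, transient peaks had iPS 5mC less often than kept peaks (by 15.7 to 22.6 points) and day-3 5mC less often (by 5.16 to 13.3 points), and fibroblast 5mC peaks with 5hmC at day 3 alone had iPS 5mC less often than those with no 5hmC (by 8.46 to 17.3 points). The levels moved: of 63 values, 24 stayed within the counting interval, or within 1.5 times the count of transient peaks, and 39 did not. Below, the order is the count of transient peaks, the day-3 5mC shares of transient and kept peaks, the iPS 5mC shares of transient and kept peaks, and the iPS 5mC shares of fibroblast 5mC peaks with 5hmC at day 3 alone and with none. With scores of 100 or more throughout these were 2398, 89.7% and 94.9%, 10.6% and 26.3%, and 10.9% and 19.9%. With lists limited to their 42301 top scores they were 2474, 72.2% and 85.5%, 24.1% and 46.1%, and 25.2% and 42.4%. With an overlap of at least 50% the 5mC shares were 81.7% and 90.9%, 15.2% and 32.7%, and 16.1% for 5hmC at day 3 alone. With the centre inside the other peak they were 81.9% and 90.8%, 15.4% and 33.3%, and 16.5%. Without any fibroblast or iPS 5hmC peak within 1000 bp, 3526 transient peaks were left, and the share for fibroblast 5mC peaks with no 5hmC was 27.2%. With peaks within 1000 bp joined, the kept peaks had 93.6% at day 3 and 39.6% in iPS cells, and fibroblast 5mC peaks with no 5hmC had 28.3%. With a score of at least 100 in the day-3 5hmC list alone (added), 3413 transient peaks were left, with iPS 5mC shares of 17.0% and 37.4% for transient and kept peaks and 17.0% for 5hmC at day 3 alone. With 5mC counted within 1000 bp (added), the shares were 90.02% and 96.1%, 27.5% and 50.1%, and 25.9% and 36.6%. A higher threshold or a shorter list changes both the peaks counted and the calls around them. The share of transient peaks with iPS 5mC thus ran from 10.6% to 27.5%, and the unknown depth of the iPS 5mC list, the second shortest of the 6, limits what its level can show.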
